A study of Mus musculus with 2 samples.

Results

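The brush border genes described here are 10 genes of the microvillus membrane of the kidney's proximal tubule, 7 for peptidases of the cell surface (Anpep, Enpep, Mep1a, Mep1b, Dpp4, Mme and Ggt1) and 3 for proteins that hold the microvillus or its membrane proteins in place (Vil1, Pdzk1 and Ezr). They were named as a list, found in the deposited tables by Ensembl identifier, and all 10 of the list were present among 43346 Ensembl genes. The series holds total RNA-seq of whole kidneys of the mouse strain B6NCrl at postnatal day 0 (0 days of age), with no treatment or transgene named in the labels. Each of its 2 libraries was made from both kidneys of 1 pup, both pups came from 1 mother, and the labels give a single group, so that n = 2 littermates and no p-value was computed. The labels number the pups 1 and 2 but list the same donor record for both, so that the SD is one between animals only if the pup numbers hold. Levels are the authors' TPM, a share of transcripts that is corrected for length and can be compared between genes, and each mean is followed by the SD over the 2 pups.

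The brush border is the layer of tightly packed microvilli on the apical face of proximal tubule cells. Its peptidases face the filtrate and cut filtered peptides into amino acids and dipeptides that transporters of the same membrane take up. Inside each microvillus, actin-bundling proteins such as villin form the core, ezrin ties actin to the membrane, and PDZ proteins, named after a short protein fold that grips the tails of other proteins, hold transporters in the apical membrane. Most of these genes are also active in the enterocytes of the small intestine.

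The tissue carried the markers of the proximal tubule, and all 16 of them were detected, which here means 1 TPM or higher in each pup. The highest were Kap, an androgen-responsive kidney gene, at 741 ± 162 TPM, the gluconeogenic enzyme Fbp1 at 449.9 ± 92.1 TPM, the phosphate transporter Slc34a1 at 245 ± 59.2 TPM and the creatine pathway enzyme Gatm at 238 ± 31.8 TPM, and the lowest was the glucose transporter Slc5a2 at 4.9 ± 1.31 TPM. None of 7 intestinal markers reached 1 TPM in both pups, and the highest, the apolipoprotein gene Apoa4, had 0.81 TPM in pup 1 and 1.49 TPM in pup 2. Sis, the sucrase-isomaltase of the enterocyte brush border, had 0 counts in both pups, for which the upper limit of 3 counts is 0.0721 CPM for pup 1 and 0.0614 for pup 2. The libraries held 41584961 expected counts in pup 1 and 48823952 in pup 2, with a biological coefficient of variation of 7.34% between the pups.

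All 10 brush border genes were detected in the newborn kidney, with 14.2 to 293 TPM as means of the pups. By the same rule 14597 of the 42462 named Ensembl genes were detected, which is the background for every count of detected genes given here. The summed level of the 10 brush border genes was 1456 TPM in pup 1 and 1206 TPM in pup 2. These sums are 0.146% and 0.121% of all TPM. For scale, the median of the 13214 protein-coding genes that reached 1 TPM in both pups was 18.3 TPM in pup 1 and 17.3 TPM in pup 2. The median of the 7 peptidases was 96.4 TPM in pup 1 and 86.3 TPM in pup 2, and that of the 3 scaffolds 257.8 TPM and 225 TPM. In both pups 9 of the 10 genes lay above the median protein-coding gene, and Vil1 lay below it.

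**Figure D1:**
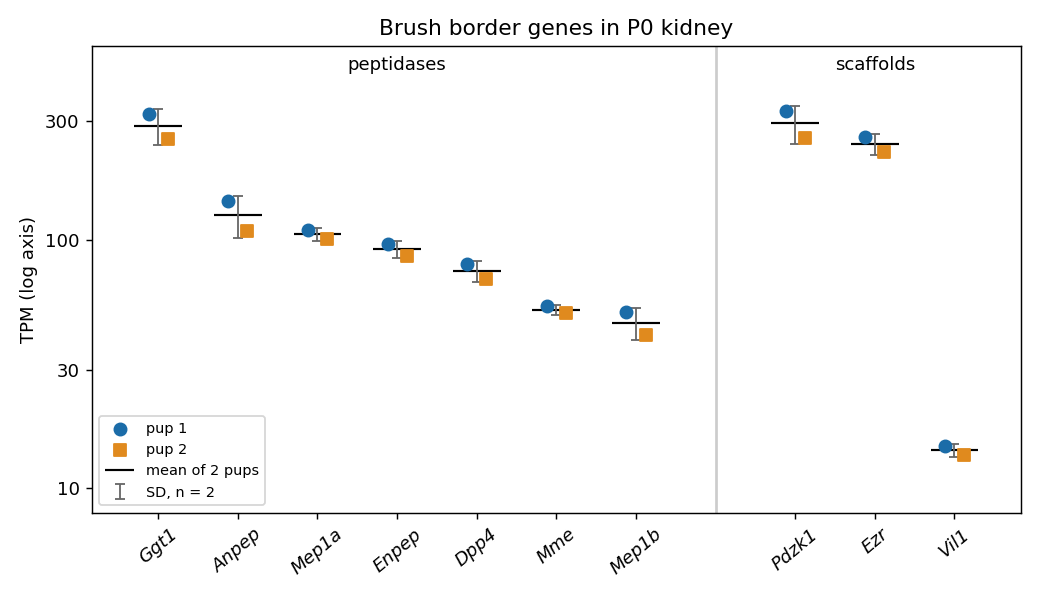
TPM of the 10 brush border genes on a log axis, with 1 point per pup (circles pup 1, squares pup 2), a bar at the mean of the 2 pups and the SD. Pdzk1, Ggt1 and Ezr sit above 200 TPM in both pups, 6 peptidases between 41.5 and 143 TPM, and Vil1 at 14.8 and 13.6 TPM.

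Ggt1 encodes gamma-glutamyl transferase, which starts the breakdown of filtered glutathione and is a classical histochemical marker of the proximal tubule brush border. It was the highest of the peptidases, with 320 TPM in pup 1 and 254 TPM in pup 2 (287 ± 46.9 TPM, 13638 and 13414 expected counts). The gene is ENSMUSG00000006345.6, chromosome 10, 75561604 to 75586200 on the plus strand, in mm10 coordinates of the GENCODE M21 annotation, which hold for all loci given here. It ranked 498 among the 13214 protein-coding genes.

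Anpep (ENSMUSG00000039062.11, chromosome 7, 79821803 to 79861059 on the minus strand) encodes aminopeptidase N, a zinc enzyme that removes neutral amino acids from the amino end of peptides. It had 143 TPM in pup 1 and 109 TPM in pup 2 (126 ± 24 TPM), the widest relative spread of the list with an SD of 19.1% of the mean. Enpep (ENSMUSG00000028024.10, chromosome 3, 129269175 to 129332720 on the minus strand) encodes aminopeptidase A, which removes acidic residues and turns angiotensin II into angiotensin III. It had 96.4 TPM in pup 1 and 86.3 TPM in pup 2 (91.3 ± 7.16 TPM). Within each pup Anpep was the higher of the pair, by a TPM ratio of 1.48 in pup 1 and 1.26 in pup 2.

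Mep1a and Mep1b encode the alpha and beta subunits of meprin, a secreted and membrane-bound zinc protease of the astacin family that is abundant in the rodent brush border. Mep1a (ENSMUSG00000023914.12, chromosome 17, 43474324 to 43502812 on the minus strand) had 109.5 TPM in pup 1 and 101 TPM in pup 2 (105 ± 6.1 TPM). Mep1b (ENSMUSG00000024313.7, chromosome 18, 21061923 to 21100199 on the plus strand) had 51.3 TPM in pup 1 and 41.5 TPM in pup 2 (46.4 ± 6.9 TPM). The alpha subunit transcript was the more abundant in both pups, 2.14 times the beta subunit in pup 1 and 2.43 times in pup 2.

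Dpp4 (ENSMUSG00000035000.8, chromosome 2, 62330073 to 62412231 on the minus strand) encodes dipeptidyl peptidase 4, a serine peptidase that cuts off dipeptides ending in proline or alanine and inactivates incretin hormones. It had 80.1 TPM in pup 1 and 69.6 TPM in pup 2 (74.9 ± 7.45 TPM). Mme (ENSMUSG00000027820.8, chromosome 3, 63241537 to 63386030 on the plus strand) encodes neprilysin, a zinc endopeptidase that degrades natriuretic peptides, enkephalins and bradykinin. It had 54.1 TPM in pup 1 and 50.6 TPM in pup 2 (52.3 ± 2.47 TPM), the narrowest relative spread of the 10 at 4.71% of the mean.

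Anpep, Enpep, Mep1a and Mme encode zinc enzymes with the same short catalytic site, a histidine and a glutamate, 2 variable residues and a second histidine, in which both histidines hold the zinc ion. The stretches are 75 bases of the coding sequence of the leading transcript in the GENCODE M21 annotation of GRCm38 (mm10), 5′ to 3′, with the 15 bases of the site in capitals. They are shown because the site is what these otherwise different peptidases share, and the site occurred once in each coding sequence. No stretch of Mep1b is shown, so its absence here says nothing about its site.
Anpep, chr7:79838975-79839210, minus strand, codons 387 to 391 of 966: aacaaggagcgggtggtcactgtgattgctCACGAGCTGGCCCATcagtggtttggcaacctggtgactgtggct
Enpep, chr3:129309109-129309816, minus strand, codons 385 to 389 of 945: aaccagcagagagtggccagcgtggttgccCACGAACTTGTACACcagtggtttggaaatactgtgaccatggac
Mep1a, chr17:43491629-43491703, minus strand, codons 167 to 171 of 760: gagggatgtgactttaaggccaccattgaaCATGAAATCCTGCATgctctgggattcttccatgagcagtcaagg
Mme, chr3:63361991-63364775, plus strand, codons 584 to 588 of 750: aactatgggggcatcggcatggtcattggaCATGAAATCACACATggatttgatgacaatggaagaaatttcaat

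The coordinates of Anpep, Enpep and Mme include an intron, which the printed bases leave out, and those of Mep1a lie within 1 exon. Anpep and Enpep, which belong to the same family, shared 52 of the 75 bases, and the other pairs shared 19 to 36. Within the 15 bases of the site, the pairs shared 8 to 12 bases, with the most between Mep1a and Mme, which belong to different families. The search itself required the codons of both histidines and of the glutamate, so part of this identity was fixed in advance. The number of shared bases in the site is therefore no measure of likeness between the genes.

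Among the scaffolds, Pdzk1 had 330 TPM in pup 1 and 257 TPM in pup 2 (293 ± 51.8 TPM) and was the highest gene of the list, ranking 488 among protein-coding genes. It encodes a protein of several PDZ folds that binds the tails of apical transporters such as the urate and phosphate carriers. Its locus (ENSMUSG00000038298.10, chromosome 3, 96829284 to 96870926 on the plus strand) overlaps Gpr89 on the opposite strand. In the M21 annotation 1333 of the 2406 bases of the leading Pdzk1 transcript also lie in Gpr89 exons. Gpr89 itself stood at 24.5 TPM in pup 1 and 21.5 TPM in pup 2, and the posterior SD of the Pdzk1 count in the authors' tables was 23 counts in pup 1 and 23.6 in pup 2. The strand setting used in counting is not given in the sources used here, so whether reads of the shared bases were separated by strand is not known.

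Ezr (ENSMUSG00000052397.8, chromosome 17, 6738041 to 6782784 on the minus strand) encodes ezrin, which links the actin core of the microvillus to its membrane and anchors PDZ adaptors there. It had 258 TPM in pup 1 and 225 TPM in pup 2 (241 ± 23.3 TPM), and with 23361 and 25114 expected counts it was the most deeply counted of the 10. Vil1 (ENSMUSG00000026175.8, chromosome 1, 74409376 to 74435559 on the plus strand) encodes villin, an actin-bundling protein of the microvillus core. It had 14.8 TPM in pup 1 and 13.6 TPM in pup 2 (14.2 ± 0.863 TPM), from 1331 and 1464 expected counts. In pup 1 the Pdzk1 level was 22.2 times and the Ezr level 17.4 times that of Vil1, against 18.9 and 16.5 times in pup 2. Vil1 shares 49 exonic bases with Usp37 on the opposite strand, which stood at 16.6 TPM in pup 1 and 13.8 TPM in pup 2.

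Ordered by mean TPM, the list ran Pdzk1, Ggt1, Ezr, Anpep, Mep1a, Enpep, Dpp4, Mme, Mep1b and Vil1. Each pup on its own gave the same order for all 9 pairs of neighbours. In 5 of these pairs both pups' values of the higher gene lay above both of the lower one, namely Ezr over Anpep, Mep1a over Enpep, Enpep over Dpp4, Dpp4 over Mme and Mep1b over Vil1. The other 4 pairs, Pdzk1 and Ggt1, Ggt1 and Ezr, Anpep and Mep1a, and Mme and Mep1b, overlapped between the pups in TPM, although within each pup the first of each pair was the higher. In the authors' FPKM, which differ from TPM within a pup by the same factor for every gene, the order was therefore the same. On that scale 8 of the 9 pairs did not overlap, with Pdzk1 and Ggt1 as the exception. The widest step was that from Mep1b to Vil1, a log2 TPM ratio of 1.79 in pup 1 and 1.61 in pup 2.

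Set against the other listed genes of their families, the peptidases were the most abundant in the newborn kidney in both pups. Ggt1 held 97% ± 0.359 of the TPM of the 4 gamma-glutamyl transferase genes, and Ggt5, which acts on leukotrienes, stood at 4.13 ± 0.106 TPM, Ggt6 at 2.9 ± 0.389 TPM and Ggt7 at 1.64 ± 0.0566 TPM. Mep1a and Mep1b together held 84.6% ± 0.0589 of the TPM of the 6 astacin genes. The next astacin, the procollagen protease Bmp1, stood at 27.3 ± 2.27 TPM, while Tll1 was at 0.24 ± 0.0283 TPM and Tll2 and Astl had at most 1 count in each pup.

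Anpep and Enpep together held 60.8% ± 2.33 of the TPM of 9 listed M1 aminopeptidase genes. Genes of this family outside the list were not counted. Other listed genes followed at lower levels, Rnpep at 48.4 ± 4.71 TPM, Npepps at 37.7 ± 0.962 TPM, Rnpepl1 at 32.5 ± 0.566 TPM, the antigen-trimming Erap1 at 17.6 ± 0.0849 TPM and Lnpep at 2.54 ± 0.346 TPM. Trhde and Lvrn were both below 0.1 TPM in each pup. Mme held 47% ± 1.24 of the TPM of the 7 M13 genes, ahead of the endothelin-converting enzymes Ece1 at 31.2 ± 1.99 TPM and Ece2 at 24.3 ± 0.99 TPM. The rest of that family was low, with Kel at 2.91 ± 0.679 TPM, the phosphate-regulating Phex at 0.675 ± 0.205 TPM, and Ecel1 and Mmel1 at or below 0.08 TPM in each pup.

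Dpp4 held 52.5% ± 0.773 of the TPM of 7 listed dipeptidyl peptidase genes, and such genes outside the list were not counted. The lysosomal Dpp7 stood at 24.2 ± 2.22 TPM, the cytosolic Dpp9 and Dpp8 at 19.3 ± 2.08 and 17.2 ± 0.24 TPM, and Fap, a fibroblast surface peptidase closely related to Dpp4, at 4.8 ± 0.24 TPM. Dpp6 and Dpp10, which lack peptidase activity and modulate potassium channels, stood at 1.19 ± 0.269 and 0.775 ± 0.0636 TPM. Both values of Dpp4 lay above both values of every other gene of these 7.

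The scaffolds differed from each other in this respect. Ezr held 52.6% ± 0.942 of the TPM of the ezrin, radixin, moesin and merlin genes, above Rdx at 100.4 ± 5.35 TPM, Msn at 89.1 ± 5.54 TPM and Nf2 at 27.9 ± 1.96 TPM. Vil1 held 3.42% ± 0.169 of the TPM of the 8 villin and gelsolin genes and ranked 7 among them. Gsn stood at 125 ± 2.03 TPM, Capg at 106 ± 1.04 TPM, Scin at 47.7 ± 1.21 TPM, Svil at 46.3 ± 3.51 TPM, Flii at 44.9 ± 2.96 TPM and the villin-like gene Vill at 32.7 ± 2.49 TPM. Only the sensory neuron gene Avil was lower than Vil1, at 0.07 ± 0.0141 TPM.

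**Figure D2:**
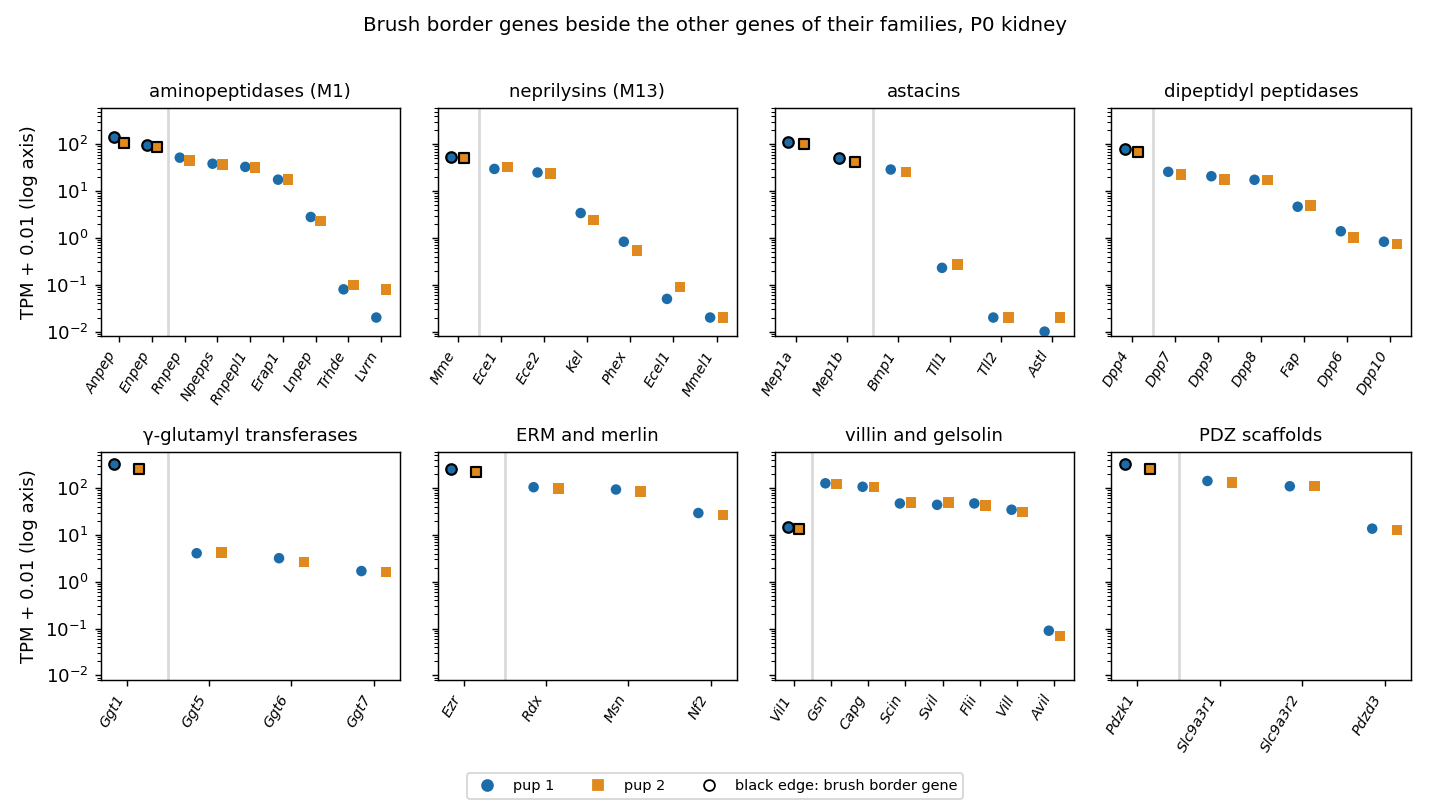
TPM + 0.01 on a log axis for the brush border genes (black edges, left of the line in each panel) and the other listed genes of 7 families, with a last panel for the PDZ adaptors Slc9a3r1, Slc9a3r2 and Pdzd3 beside Pdzk1. Circles stand for pup 1 and squares for pup 2. The brush border genes are the highest points of every panel except that of villin and gelsolin, where Vil1 at 14.8 and 13.6 TPM lies under 6 relatives.

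Ezrin is switched on by phosphorylation and binds the tails of membrane proteins. Of its activating kinases, Slk stood at 11 ± 1.02 TPM and Stk10 at 1.9 ± 0.00707 TPM. The membrane anchors were the podocyte and apical sialomucin Podxl at 68.5 ± 0.276 TPM and the hyaluronan receptor Cd44 at 3.38 ± 0.29 TPM. Podxl is also a marker of podocytes, whose list had 6 of 6 genes at 1 TPM or more in both pups.

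All 11 genes of the PDZ scaffolds and partners list were at 1 TPM or more in both pups. That list holds other PDZ adaptors as well as partners of Pdzk1. Pdzk1ip1, a small membrane protein that binds Pdzk1, was the highest at 560 ± 14.3 TPM, above Pdzk1 in both pups. Slc34a1, the main phosphate transporter of the brush border, stood at 245 ± 59.2 TPM. The sodium-hydrogen exchanger regulatory factors, which are the other PDZ adaptors of this membrane, stood at 136 ± 7.93 TPM for Slc9a3r1 and 110 ± 0.488 TPM for Slc9a3r2. The lowest of the list was Slc34a3, a second phosphate transporter, at 1.26 ± 0.0495 TPM.

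Other hydrolases of the apical membrane were present at lower levels. Of 10 such genes 9 reached 1 TPM in both pups, and their median was 23.4 TPM in pup 1 and 20.4 TPM in pup 2, below that of the 7 peptidases. Among the highest were the serine protease Tmprss2 at 66.9 ± 8.84 TPM, carboxypeptidase M, Cpm, at 40.9 ± 1.65 TPM and the alkaline phosphatase Alpl at 29.1 ± 2.46 TPM. The glutamate carboxypeptidase Folh1 was the lowest at 0.325 ± 0.106 TPM.

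Among the angiotensin genes, Enpep at 91.3 TPM stood above Ace, the angiotensin-converting enzyme, with a level 4.49 times that of Ace in pup 1 and 4.4 times in pup 2. Ace stood at 20.5 ± 1.32 TPM, the precursor gene Agt at 15.6 ± 3.67 TPM, and Ren1, the renin gene of the juxtaglomerular cells, at 384 ± 3.37 TPM.

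The core and the tip links of the microvillus had 13 of 14 genes at 1 TPM or more in both pups, with a median of 28.2 TPM in pup 1 and 25.2 TPM in pup 2. Calml4, a light chain of the tip link complex, was the highest at 224 ± 1.69 TPM, ahead of the actin regulator Eps8l2 at 59.8 ± 1.99 TPM, the motor Myo6 at 45.9 ± 7.93 TPM and the actin-capping Eps8 at 35 ± 1.22 TPM. Myo1a, the main brush border myosin of the intestine, was the lowest at 0.055 ± 0.00707 TPM, with 6 counts in each pup. A pair of actin bundlers of the core stood above Vil1 in both pups: the Vil1 level was 0.539 times that of Pls1 and 0.514 times that of Espn in pup 1, against 0.566 and 0.518 times in pup 2. Pls1 and Espn are named here after their values were seen.

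The transcript tables divide each gene's TPM among its annotated transcripts, 60 in all for the 10 genes. In 7 genes 1 transcript held 90% or more of the TPM as a mean of the pups. Mep1b has a single annotated transcript. The leading transcript held 99.6% of Ezr TPM in pup 1 and 99.9% in pup 2, and 100% and 96.9% of Vil1 TPM. The leading shares were 95.3% in pup 1 and 96.5% in pup 2 for Enpep, 95.5% and 95.6% for Pdzk1, 93.4% and 92.7% for Anpep, and 91.2% and 92.4% for Dpp4. The remaining share of Dpp4 fell on 5 transcripts with no coding sequence, which together held 8.75% of its TPM in pup 1 and 7.57% in pup 2.

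**Figure D3:**
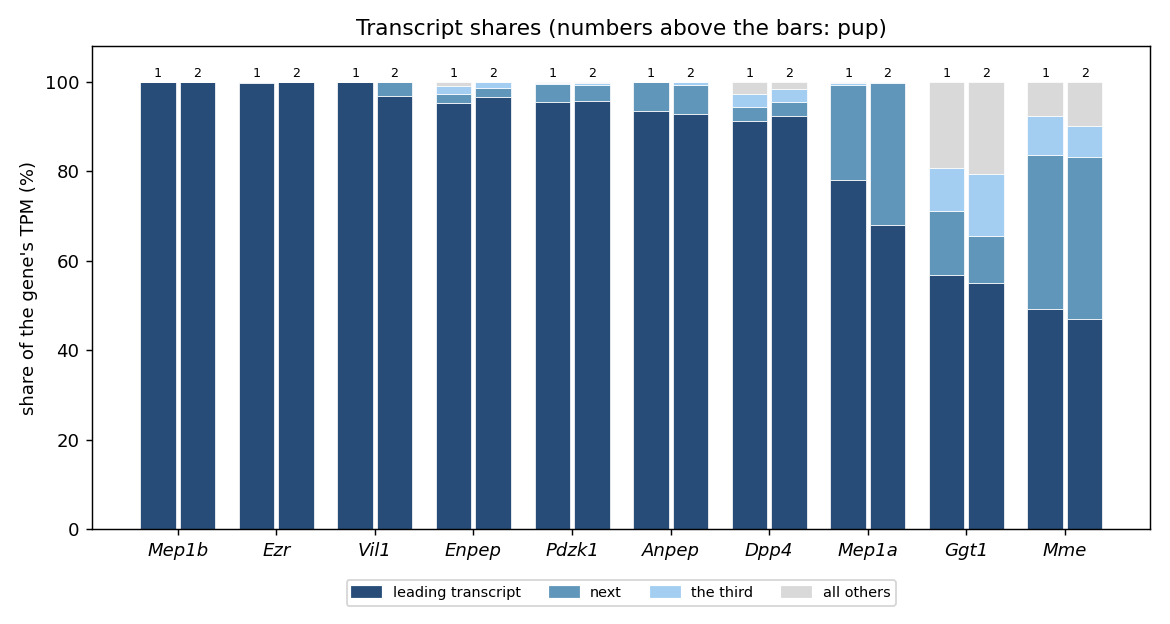
Stacked bars of the percent of each gene's TPM on its leading transcript, the next, the third and all others, with pup 1 left of pup 2 for each gene. From Mep1b to Dpp4 1 transcript fills over 90% of the bar, whereas the leading shares are 78% and 68.1% for Mep1a, 56.8% and 55% for Ggt1 and 49.3% and 47.1% for Mme.

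Mep1a, Ggt1 and Mme were the exceptions. Mep1a-201 held 78% of the gene's TPM in pup 1 and 68.1% in pup 2, and Mep1a-202 21.4% and 31.6%. Mep1a-202 starts 39 bases upstream of the other transcript and ends 7 bases beyond it, so few reads separate them. The posterior SD of either transcript's count was 291 in pup 1 and 469 in pup 2, and the difference of these shares between the pups was the widest among the leading transcripts.

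Mme was divided between a pair of transcripts. Mme-201 held 49.3% of its TPM in pup 1 and 47.1% in pup 2, and Mme-205 held 34.5% and 36.1%. Mme-205 starts 223 bases upstream of Mme-201 and ends 4407 bases beyond it, which gives a transcript of 8039 bases. By count the order was the opposite, with 4390 expected counts in pup 1 and 5293 in pup 2 for Mme-205 and 2911 and 3202 for the shorter transcript, because TPM divides by length. Mme-202, a fragment of 569 bases, held 8.66% and 6.93% of the TPM.

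Ggt1 has 20 annotated transcripts. Ggt1-208 held 56.8% of its TPM in pup 1 and 55% in pup 2. Among annotated fragments, that of 429 bases from an upstream start held 14.3% and 10.5%, and that of 700 bases from the 3′ end of the gene held 9.62% and 13.9%. The 2 fragments thus ranked differently in the 2 pups, while Ggt1-208 led in both. By count, Ggt1-208 had 10989 of the gene's 13638 expected counts in pup 1 and 10379 of 13414 in pup 2.

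Start sites were read from the transcript shares, by giving each promoter window the transcripts whose 5′ end lies within 100 bases of its annotated start. A window holds 250 bases before and 50 after a start, and the sequences are those of RefSeq on GRCm38.p6. The windows of 9 of the 10 genes were used, 15 in all, and Mep1b was left out. Those below are shown because their starts carried very different shares of a gene's transcripts. Capitals mark matches, on either strand, to any of 3 motifs, and no matches overlapped. The GC box was searched as GGGCGG and the HNF4-like nuclear receptor site as CAAAGNNCA. The letters TATAAA stood for the TATA box.
Pdzk1 main start, chr3:96829815-96830114, plus strand: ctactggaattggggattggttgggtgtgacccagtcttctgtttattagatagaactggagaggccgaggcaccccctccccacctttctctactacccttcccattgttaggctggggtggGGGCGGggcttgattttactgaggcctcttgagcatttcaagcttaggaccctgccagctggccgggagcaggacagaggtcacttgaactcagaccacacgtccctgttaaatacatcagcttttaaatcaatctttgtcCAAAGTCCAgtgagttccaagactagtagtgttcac
Pdzk1 downstream start, chr3:96831921-96832220, plus strand: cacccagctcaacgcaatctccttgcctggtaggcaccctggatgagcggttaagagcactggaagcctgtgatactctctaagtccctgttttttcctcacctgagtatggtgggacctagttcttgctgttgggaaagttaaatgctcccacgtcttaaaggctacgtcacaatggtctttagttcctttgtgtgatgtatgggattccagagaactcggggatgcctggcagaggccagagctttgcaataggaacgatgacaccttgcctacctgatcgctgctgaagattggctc
Ggt1 main start, chr10:75568412-75568711, plus strand: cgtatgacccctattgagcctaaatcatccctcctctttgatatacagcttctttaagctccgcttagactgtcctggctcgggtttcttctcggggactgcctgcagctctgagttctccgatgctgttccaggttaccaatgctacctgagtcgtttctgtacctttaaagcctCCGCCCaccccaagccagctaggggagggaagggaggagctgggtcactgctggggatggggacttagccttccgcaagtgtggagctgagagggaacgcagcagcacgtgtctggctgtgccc
Ggt1 upstream start, chr10:75563882-75564181, plus strand: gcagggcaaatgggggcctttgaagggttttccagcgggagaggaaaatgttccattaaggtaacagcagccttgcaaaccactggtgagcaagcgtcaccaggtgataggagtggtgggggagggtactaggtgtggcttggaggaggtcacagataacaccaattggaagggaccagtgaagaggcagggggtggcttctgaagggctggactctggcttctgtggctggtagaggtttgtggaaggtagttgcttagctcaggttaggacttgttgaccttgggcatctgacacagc
Anpep distal start, chr7:79848161-79848460, minus strand: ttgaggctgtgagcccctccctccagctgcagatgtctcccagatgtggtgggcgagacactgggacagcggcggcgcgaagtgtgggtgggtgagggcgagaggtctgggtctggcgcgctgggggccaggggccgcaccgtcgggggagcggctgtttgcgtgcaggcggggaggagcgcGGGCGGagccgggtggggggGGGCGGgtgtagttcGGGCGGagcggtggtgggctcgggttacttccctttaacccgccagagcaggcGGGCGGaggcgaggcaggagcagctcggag

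The main Pdzk1 start carried 95.5% of the gene's TPM in pup 1 and 95.6% in pup 2, against 0.415% and 0.436% at the downstream start. The main Ggt1 start carried 65% in pup 1 and 63.5% in pup 2 over 6 transcripts, and the start upstream of it 14.3% and 10.5%. That upstream share came from the annotated fragment of 429 bases, which had 447 expected counts in pup 1 and 321 in pup 2. The gene had 13638 and 13414, so the share by count was smaller than by TPM, which divides by length. A further 2 windows of Ggt1 carried 1.38% and 3.22% in pup 1 and 1.74% and 5.36% in pup 2, and 16.1% and 18.8% of Ggt1 TPM lay on transcripts with no window. The distal start of Anpep lies 5858 bases upstream of that of the leading transcript and carried 6.62% and 7.27%. The rest of the Anpep TPM came from the start of Anpep-201 at position 79842352, for which no window is shown.

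The letters of these windows differed. The distal Anpep window held 4 GC boxes and was 72.3% G and C, against a median of 52.7% over all 32851 windows of the table. The main Pdzk1 window held 1 GC box and 1 CAAAGNNCA match, CAAAGTCCA, which lies 14 bases past the annotated start, and its downstream window held no match. Over the 15 windows, GGGCGG was found in 9, TATAAA in 3 and CAAAGNNCA in 1. Of all windows of the same length, 35.7% hold GGGCGG, 13.6% TATAAA and 6.36% CAAAGNNCA.

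The pups were compared as log2 ratios of CPM + 0.1 after TMM scaling, pup 1 over pup 2, for the 15161 genes whose expected count was 50 or higher in 1 of the pups or both. Of the 10 brush border genes, 9 were higher in pup 1, with a median log2 ratio of 0.10, against a median of -0.0014 over all genes tested. Anpep was 1.24-fold higher (log2 0.31, with a 95% counting interval of 0.28 to 0.35) and Pdzk1 1.21-fold higher (0.27, 0.24 to 0.30). These 2 of 10 passed 1.2-fold, and 4.99% of all genes tested did so in this direction. None was lower in pup 1 by 1.2-fold, as 9.14% of all genes were.

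Ggt1 at 0.24 (0.20 to 0.27) and Mep1b at 0.22 (0.15 to 0.29) stood just under 1.2-fold, which is 0.263 on the log2 scale and lies inside the counting intervals of Ggt1, Mep1b and Pdzk1. Ezr at 0.11, Dpp4 at 0.10, Vil1 at 0.07, Enpep at 0.06 and Mep1a at 0.02 were closer to 0, and Mme at -0.02 was the only one lower in pup 1. The counting intervals of Vil1, Mep1a and Mme included 0. No member differed by 1.5-fold, which 0.732% of all genes did upward and 1.85% downward. Among the 8834 genes of at least 10 TPM in both pups, a background chosen after the data were seen that includes all 10, 1.28% were 1.2-fold higher and 4.63% were 1.2-fold lower.

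**Figure D4:**
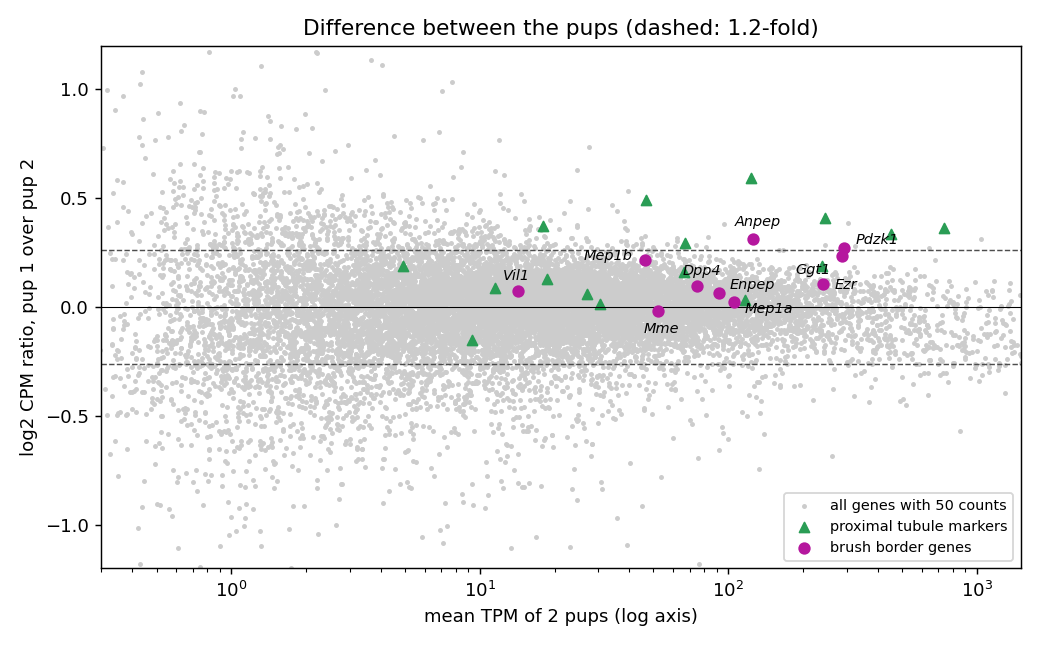
Log2 CPM ratio of pup 1 over pup 2 against mean TPM on a log axis for genes with at least 50 counts (grey), proximal tubule markers (green triangles) and the brush border genes (purple, labelled), with dashed lines at 1.2-fold. Anpep at 0.31 and Pdzk1 at 0.27 lie above the upper line, the other 8 between 0.24 and -0.02. Of 15161 genes, 158 lie outside the axes.

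The markers of the proximal tubule differed between the pups in the same direction as most of these genes. Of the 16, 15 were higher in pup 1 and 7 by 1.2-fold or more, with a median log2 ratio of 0.19, and their summed level was 2524 TPM in pup 1 and 1905 TPM in pup 2. Slc34a1 stood at 0.41, Kap at 0.36 and Fbp1 at 0.34. The podocyte list summed to 253 TPM in pup 1 and 252 TPM in pup 2, and the collecting duct list to 669 and 759 TPM. Most of the latter sum was Aqp2, at 547 TPM in pup 1 and 638 TPM in pup 2, with a log2 ratio of -0.31. Of the 4 collecting duct genes, 2 were higher in pup 1 and 2 were lower. As log2 ratios, 5 of the 6 podocyte genes were lower in pup 1, with a median of -0.08. The stroma and pericyte list summed to 1115 TPM in pup 1 and 983 TPM in pup 2. By log2 ratio 2 of its 5 genes were higher in pup 1 and 3 were lower. In whole kidney RNA, fewer cells of a type and less RNA per cell cannot be told apart, and the part of these marker differences in those of the brush border genes was not tested.

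The median log2 ratio was 0.10 for the 10 genes and nearly the same, 0.09, for 9 other apical hydrolases. Of these 9, 7 were higher in pup 1, none by 1.2-fold, and 1, the trehalase gene Treh at -0.48, was 1.2-fold lower. The median was 0.06 for 11 PDZ scaffolds and partners. Of these, 3 were 1.2-fold higher, the urate transporter Slc22a12 at 0.43, Slc34a1 at 0.41 and Slc34a3 at 0.32. The median was 0.03 for 13 microvillus genes, of which none passed 1.2-fold. Treh and Slc22a12 are named after their values were seen. In deposited TPM all 10 brush border genes were higher in pup 1, where the median of all genes tested was itself 0.08 higher on the log2 scale. On that scale Anpep stood at 0.39, Pdzk1 at 0.36, Ggt1 at 0.34 and Mep1b at 0.30, and Mme at 0.10.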

How the data were processed

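Both libraries were total RNA from both kidneys of 1 pup each, 10 ng of RNA longer than 200 nt per the labels. The authors deposited, per the file headers, expected counts, TPM and FPKM per gene and transcript, with posterior means and SDs of counts, and the percent of a gene's TPM on each transcript. Per the labels and the deposited text the assembly was mm10 and the annotation GENCODE M4; for the aligner, the quantifier and the strand setting the sources used here give no name. Depth was 41584961 and 48823952 expected counts. Counting intervals (exact binomial, 95%) cover counting error only.

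Gene names, loci and exons came from GENCODE M21 (GRCm38). The members, lists and rules were chosen with earlier results of these data known. Named were the members, the transcripts of 5% or more, up to 4 highest genes and the lowest of each pathway or marker list, and all genes of the family, ezrin and angiotensin lists. Some genes that this rule covers are not reported here. With 1 group no test was made. Expected counts were rounded and scaled by TMM (edgeR 4.0.16, R 4.3.3); DESeq2 1.42.0 size factors, other scalings, filters, folds, posterior means and each pup alone were alternatives. The ratio step was tested on simulated data. Tables were handled in Python 3.11.15 (pandas 2.3.3, NumPy 2.4.6), intervals in SciPy 1.17.1 and plots in Matplotlib 3.10.9. Protein sequences were not analysed here. The zinc sites were found by translating the coding sequence of M21 transcripts.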

Additional observations from a re-analysis of the deposited data

How the results depend on the processing

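Of 47 recomputed values of counts, medians and the sum, 40 stayed within the spread between the pups or within 1.5 times the main count. Some of the 40 could not have moved. Each pup alone lies within the spread between the pups, and detection at 0.1 TPM follows from detection at 1 TPM. The count filters could not remove any of the 10 genes. Rescaling TPM to nuclear protein-coding genes multiplied all levels, by 1.24 in pup 1 and 1.28 in pup 2, and gave 115 TPM for the median of the 7 peptidases (91.3 TPM as deposited), 304 TPM for that of the 3 scaffolds (241 TPM) and 1679 TPM for the sum (1331 TPM), with the order of the genes kept. The number of members 1.2-fold higher in pup 1 was 2, and 4 by the TPM ratio, which is centred 0.08 higher on the log2 scale; at 1.5-fold and at 2-fold it was 0. Of the 9 neighbours in the order, 5 did not overlap between the pups in TPM and 8 in FPKM. Within a pup TPM and FPKM differ by the same factor for every gene, so this number depends on how the pups are scaled to each other. Added after the data were seen, posterior mean TPM gave 6 and coding transcripts alone 5. With each pup alone, the peptidase median was 86.3 to 96.4 TPM, the scaffold median 225 to 258 TPM and the sum 1206 to 1456 TPM. All 10 members passed detection at 0.1, 1 and 10 TPM. No paired analysis was possible because the labels give 1 group. With 2 littermates, variation between litters is not covered, and shares of transcripts that differ by a few bases are limited by reads that fit both.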
